A study of Mus musculus with 14 samples.

Results

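The serotonin receptor genes examined here were Htr1a, Htr1b, Htr1d, Htr2a, Htr2c, Htr3a, Htr4, Htr5a, Htr5b and Htr7. They were chosen by name, and the 10 genes were found by their Ensembl identifiers among the 39017 genes of the count table, of which 21298 passed edgeR's filter on low counts and were tested. All 10 receptor genes passed that filter.

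The study asked which transcripts of hippocampal PV neurons, interneurons that contain the calcium-binding protein parvalbumin, differ between mice that do and do not withdraw from other mice after chronic social defeat stress (CSDS). Adult male mice on a C57BL/6 background carried a Cre-dependent EGFP-L10a allele and PV-Cre, so that cells with active PV-Cre make a ribosomal protein tagged with EGFP. In translating ribosome affinity purification (TRAP), tagged ribosomes are pulled out of a homogenate with the RNA attached to them, here from both hippocampi of 1 mouse per sample. Non-defeated mice (4 samples) were housed in pairs across a divider and never met an aggressor. Resilient mice (4 samples) and susceptible mice (3 samples) were attacked on successive days by CD-1 aggressors, and were divided by a social interaction ratio above or below 1. Input (3 samples) was total RNA of non-defeated homogenates taken before TRAP. All groups carried both alleles, the tag marks every hippocampal cell in which PV-Cre is active, and no input sample shares a number with a TRAP sample.

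Serotonin reaches the hippocampus from the raphe nuclei and acts there through many receptors. The 5-HT1 and 5-HT5 receptors couple to inhibitory Gi/o proteins, 5-HT4 and 5-HT7 receptors to Gs and cyclic AMP, and 5-HT2 receptors to Gq and phospholipase C, while 5-HT3 receptors are cation channels opened by serotonin. Different hippocampal cells carry different members: 5-HT1A receptors are known for inhibiting pyramidal and granule cells, 5-HT3A for a class of interneurons other than PV neurons, and 5-HT2C for the choroid plexus, the epithelium that makes cerebrospinal fluid.

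Libraries held 64110214 to 94726962 counts, and the smallest TRAP library held 72098582. Pvalb, which encodes parvalbumin, had 25.4 ± 6.03 normalized CPM (SD, n = 3) in input and 1464 ± 134 (SD, n = 4) in TRAP of non-defeated mice. RNA of other cells remained in TRAP. Summed over 5 markers of excitatory neurons, TRAP of non-defeated mice held 233 to 298 normalized CPM against 973 to 1180 in input, with all 5 lower. The 7 choroid plexus markers summed to 212 to 325 against 737 to 843. All 7 had log2 fold changes below 0, and 4 of the 7 had an adjusted p-value under 0.05. Sst, which marks another class of interneurons, had 62.5 ± 6.1 normalized CPM in input and 190 ± 35.1 in TRAP of non-defeated mice. It was thus higher in TRAP (log2 fold change 1.61, adjusted p = 0.000753). Thalamic markers reached 246 to 657 in non-defeated replicates 9 and 11, resilient replicate 7 and input replicate 14, and 34.0 to 157 in the other libraries. Levels below are TMM-normalized counts relative to library size (CPM). In lists of values, input follows the order of replicates 12, 13 and 14, non-defeated mice 1, 6, 9 and 11, resilient mice 3, 5, 7 and 8, and susceptible mice 2, 4 and 10.

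**Figure D1:**
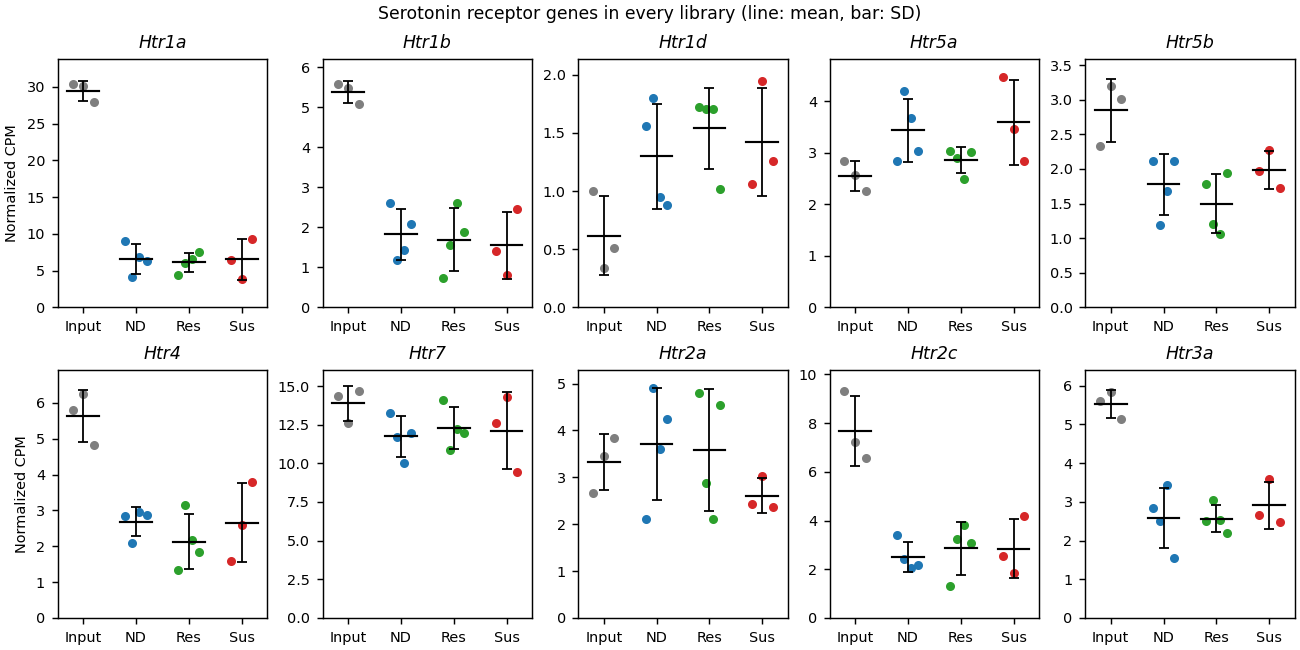
Normalized CPM (vertical axis, from 0) of the 10 receptor genes in each of the 14 libraries, by group: input, non-defeated (ND), resilient (Res) and susceptible (Sus). Points are libraries, lines are means and bars are SD; the input points of Htr1a, Htr1b, Htr2c, Htr3a, Htr4 and Htr5b lie above every non-defeated point, whereas the 3 TRAP groups overlap in every gene.

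All 10 receptor genes were detected, with at least 10 counts in each of the 14 libraries. Single counts ran from 24, for Htr1d in an input library, to 2588, for Htr1a in another. Of the other receptor genes, Htr1f and Htr6 also passed the filter, while Htr2b and Htr3b did not. Htr2b reached 10 counts in input replicate 12 alone, with 12 counts, and shares 252 bp of exon with Psmd1 on the opposite strand. Htr3b, which encodes the partner subunit of 5-HT3A, had at most 3 counts in any library.

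Per kilobase of exon, the order of the receptors differed between input and TRAP. Levels in this paragraph are RPKM, normalized CPM divided by the merged exon length in kb. In the 11 TRAP libraries Htr7 stood first, at 3.54 ± 0.451 RPKM (SD, n = 11), and its lowest library, at 2.78, lay above the highest library of every other receptor gene. Next came Htr1f at 1.64 ± 0.302, Htr1a at 1.43 ± 0.401 and Htr3a at 1.28 ± 0.272. Each of these overlapped its neighbour in the order. Htr5b followed at 0.896 ± 0.214, Htr5a at 0.608 ± 0.115, Htr2a at 0.600 ± 0.196, Htr4 at 0.505 ± 0.151, Htr1d at 0.444 ± 0.122, Htr1b at 0.361 ± 0.143, Htr6 at 0.294 ± 0.110 and Htr2c at 0.293 ± 0.0952, again without a gap between neighbours. In input, Htr1a stood first at 6.57 ± 0.303 RPKM (SD, n = 3), ahead of Htr7 at 4.08 ± 0.333 and Htr3a at 2.66 ± 0.174, and these 3 did not overlap each other or the next gene. Htr1d stood last in input at 0.193 ± 0.106, apart from Htr5a at 0.475 ± 0.0543. The place of Htr2c depends on its length: over its longest transcript of 4883 bp in place of 9328 bp of merged exons, it had 0.559 RPKM in TRAP and moved from place 12 to place 8.

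**Figure D2:**
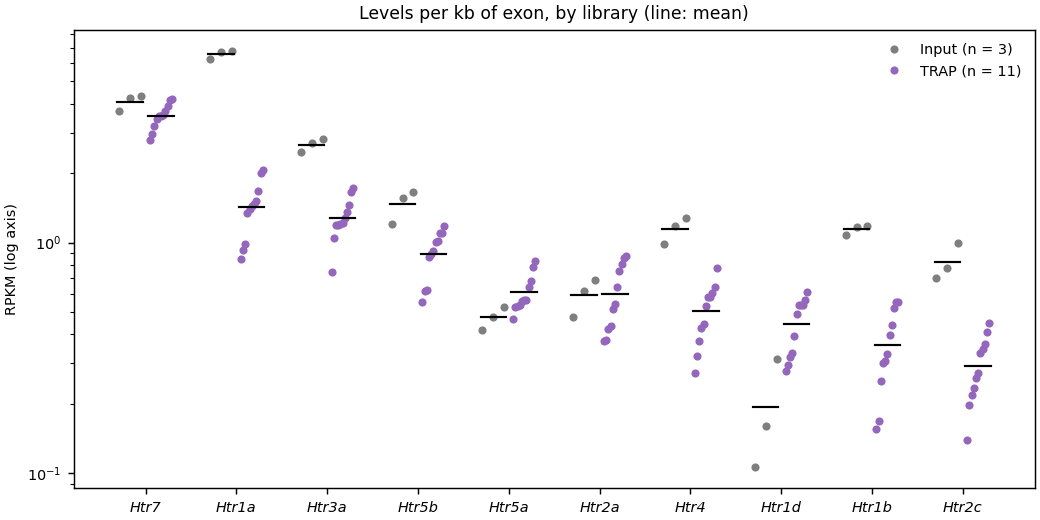
RPKM on a log axis for the 10 receptor genes, ordered by their mean in TRAP. Grey points are the 3 input libraries, purple points the 11 TRAP libraries and lines the means; Htr7 leads in TRAP, and Htr1a leads in input and has a mean of 1.43 RPKM in TRAP.

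The makeup of the receptor transcripts followed from these levels. The 10 genes summed to 19.2 ± 0.507 RPKM (SD, n = 3) in input and 9.99 ± 0.857 (SD, n = 4) in TRAP of non-defeated mice. Htr1a held 33.5% to 34.8% of that sum in the input libraries and 9.96% to 17.9% in TRAP of non-defeated mice. Htr7 held 19.2% to 23.2% in input and 30.4% to 36.9% in TRAP. For both genes the shares of the 2 groups did not overlap, and in resilient and susceptible mice Htr7 had 37.1% ± 3.88 and 34.9% ± 6.28. The shares of Htr3a overlapped between the 2 groups, 13.9% ± 0.653 in input and 12.4% ± 3.76 in TRAP of non-defeated mice.

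TRAP of non-defeated mice was compared with input to ask which receptor transcripts are enriched on ribosomes of PV neurons relative to the whole hippocampus. Htr1a, Htr2c, Htr1b, Htr3a, Htr4 and Htr5b were lower in TRAP, by 4.49-fold for Htr1a down to 1.61-fold for Htr5b. Htr1d was higher, by 2.10-fold. Htr5a, Htr7 and Htr2a did not pass the threshold. Thus 7 of the 10 receptor genes had an adjusted p-value under 0.05, 6 lower and 1 higher, where 27.6% of all genes tested were lower and 27.4% were higher. The median log2 fold change was -0.87 over the 10 receptors and -0.04 over all genes. The 6 lower genes also had no overlap between the 2 groups, as did 32.5% of all genes in that direction. In bulk tissue, fewer cells of a type and less RNA per cell cannot be told apart. With scaling by total counts only, the median of all genes moved by -0.19 on the log2 scale, and the higher genes made up 36.6% of those called in place of 49.8%.

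**Figure D3:**
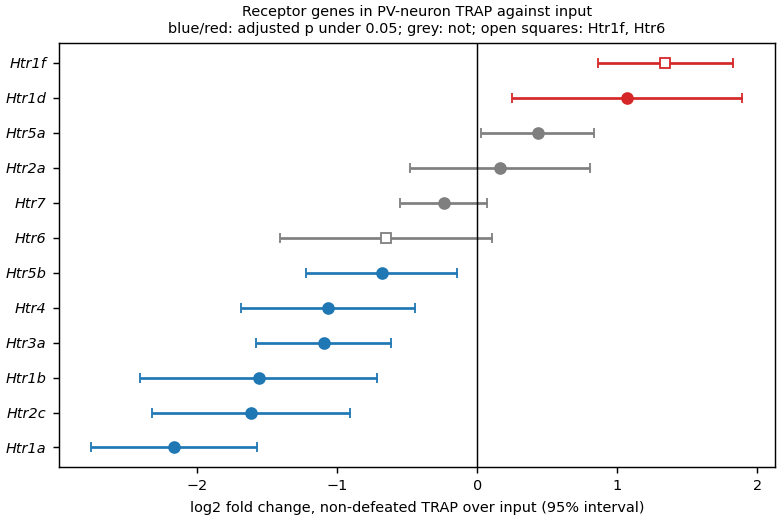
Log2 fold change of TRAP of non-defeated mice (n = 4) over input (n = 3), with 95% intervals derived from the edgeR test, for the 10 receptor genes (circles) and for Htr1f and Htr6 (open squares). Blue and red mark an adjusted p-value under 0.05, and the genes run from -2.17 for Htr1a to 1.34 for Htr1f.

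Among the receptors coupled to Gi/o, Htr1a and Htr1b were lower and Htr1d higher in TRAP. Htr1a (ENSMUSG00000021721) is a gene of 1 exon, which in mm10 spans 105443639 to 105448122 of chromosome 13 (plus strand). It encodes the 5-HT1A receptor, which opens GIRK potassium channels and also acts as the autoreceptor of raphe neurons. Input libraries had 30.4, 30.1 and 27.9 normalized CPM and non-defeated TRAP libraries 9.01, 4.18, 6.82 and 6.29. Every TRAP library was far below every input library. The log2 fold change was -2.17 (SE, the standard error, 0.28, adjusted p = 1.34e-05), and the exact permutation test gave p = 0.0286, the smallest possible with 4 and 3 samples. Markers of cells in which 5-HT1A receptors are known fell too: summed markers went from 403 ± 34.8 to 240 ± 18.4 normalized CPM in CA1, with 3 of 3 lower, from 328 ± 21.2 to 89.9 ± 14.2 in CA3, with 3 of 3 lower, and from 162 ± 18.5 to 63.6 ± 14.6 in dentate granule cells, with 2 of 3 lower and Dsp higher. Their part in the level of Htr1a was not tested.

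Htr1b (ENSMUSG00000049511; minus strand of chromosome 9, from 81628291 to 81633828) encodes the 5-HT1B receptor, which lowers transmitter release from axon terminals. It had 5.59, 5.49 and 5.08 normalized CPM in input and 2.61, 1.18, 1.44 and 2.08 in TRAP of non-defeated mice. The groups did not overlap, and the log2 fold change was -1.56 (SE 0.40, adjusted p = 0.00394). Htr1b shares 852 bp of exon with D430036J16Rik on the opposite strand, and the library kit does not keep the strand, so reads there cannot be assigned to either gene.

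Htr1d (ENSMUSG00000070687; plus strand of chromosome 4, from 136423524 to 136444398) encodes the 5-HT1D receptor, another receptor of axon terminals. Input libraries had 0.997, 0.340 and 0.514 normalized CPM, from 85, 24 and 46 counts, and TRAP of non-defeated mice had 1.56, 1.80, 0.947 and 0.884. The highest input library lay among the TRAP libraries. The log2 fold change was 1.07 (SE 0.38, adjusted p = 0.0288; exact permutation p = 0.143). This call was lost without non-defeated replicate 1 (adjusted p = 0.0625), non-defeated replicate 6 (0.0854), input replicate 13 (0.126) or input replicate 14 (0.100), with the direction kept in each.

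Htr5a (ENSMUSG00000039106; plus strand of chromosome 5, from 27842149 to 27855088) encodes the 5-HT5A receptor. It had 2.84, 2.56 and 2.26 normalized CPM in input and 2.84, 4.20, 3.67 and 3.03 in TRAP of non-defeated mice. Every TRAP library was above every input library, the lowest by less than 0.01, but the log2 fold change of 0.43 (SE 0.19, adjusted p = 0.0668) missed the threshold. Without non-defeated replicate 1 the adjusted p was 0.0415, and with DESeq2 0.0498.

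Htr5b (ENSMUSG00000050534; minus strand of chromosome 1, from 121509842 to 121528465) encodes the 5-HT5B receptor, whose human counterpart is a disrupted gene. It had 2.33, 3.20 and 3.01 normalized CPM in input and 2.12, 1.19, 1.68 and 2.12 in TRAP of non-defeated mice. The groups lay apart by a narrow margin. The log2 fold change was -0.68 (SE 0.25, adjusted p = 0.0322), a call that was lost without non-defeated replicate 6 (adjusted p = 0.0902), non-defeated replicate 9 (0.0626), input replicate 13 (0.111) or input replicate 14 (0.0891), and without the 4 libraries with the most thalamic marker RNA (0.0965). The medial habenula is known for Htr5b, and 4 habenular markers summed to 2.36 ± 0.159 normalized CPM in input and 0.933 ± 0.408 in TRAP. All 4 markers had log2 fold changes below 0, and 1 of 4 passed the threshold. Their part in the level of Htr5b was not tested.

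Of the receptors coupled to Gs, Htr4 was lower in TRAP and Htr7 was not called. Htr4 (ENSMUSG00000026322; plus strand of chromosome 18, from 62324204 to 62496577) encodes the 5-HT4 receptor, which raises the excitability of principal cells. It had 5.81, 6.24 and 4.83 normalized CPM in input and 2.84, 2.08, 2.96 and 2.86 in TRAP of non-defeated mice. Each TRAP library was well below the lowest input library, with a log2 fold change of -1.07 (SE 0.29, adjusted p = 0.00612). Htr7 (ENSMUSG00000024798; minus strand of chromosome 19, from 35958734 to 36057507) encodes the 5-HT7 receptor. Its values were 14.4, 12.6 and 14.7 normalized CPM in input and 13.3, 11.7, 10.1 and 11.97 in TRAP of non-defeated mice. The groups overlapped, the log2 fold change was -0.24 (SE 0.15, adjusted p = 0.173), and its 95% interval ran from -0.55 to 0.07. Scaled by total counts only, Htr7 was called lower, at -0.43 on the log2 scale (adjusted p = 0.0239). The thalamus is known for Htr7. Of the 4 libraries with the most thalamic marker RNA, input replicate 14 had the highest Htr7 of all libraries, at 14.7 normalized CPM, while non-defeated replicates 9 and 11 and resilient replicate 7 had 10.1, 11.97 and 12.2, and the part of thalamic RNA in these levels was not tested.

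Of the receptors coupled to Gq, Htr2c was lower in TRAP and Htr2a was not called. Htr2a (ENSMUSG00000034997; plus strand of chromosome 14, from 74640840 to 74709494) encodes the 5-HT2A receptor, the target of classical hallucinogens. It had 2.67, 3.46 and 3.84 normalized CPM in input and 2.11, 4.90, 3.60 and 4.24 in TRAP of non-defeated mice. TRAP libraries lay on both sides of input. The log2 fold change was 0.16 (SE 0.30, adjusted p = 0.673) and its interval ran from -0.48 to 0.80. With scaling by total counts only the value was -0.03, so no direction is given.

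Htr2c (ENSMUSG00000041380; plus strand of chromosome X, from 146962513 to 147197277) encodes the 5-HT2C receptor, whose transcript is edited by ADAR enzymes. Input libraries had 9.31, 7.21 and 6.56 normalized CPM and TRAP of non-defeated mice 3.40, 2.41, 2.04 and 2.19. The groups were far apart, with a log2 fold change of -1.62 (SE 0.33, adjusted p = 0.000816). The summed choroid plexus markers were also lower in TRAP. Of the TRAP libraries, susceptible replicate 10 was highest in both, with 4.19 normalized CPM of Htr2c and 764 of the markers, and resilient replicate 3 lowest in both, with 1.30 and 169. Susceptible replicate 4 went the other way, with more marker RNA than any non-defeated library, at 440, and less Htr2c, at 1.84. Susceptible replicate 10 had marker levels within the range of input and a lower Htr2c than any input library. The part of choroid plexus RNA in the level of Htr2c was not tested.

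**Figure D4:**
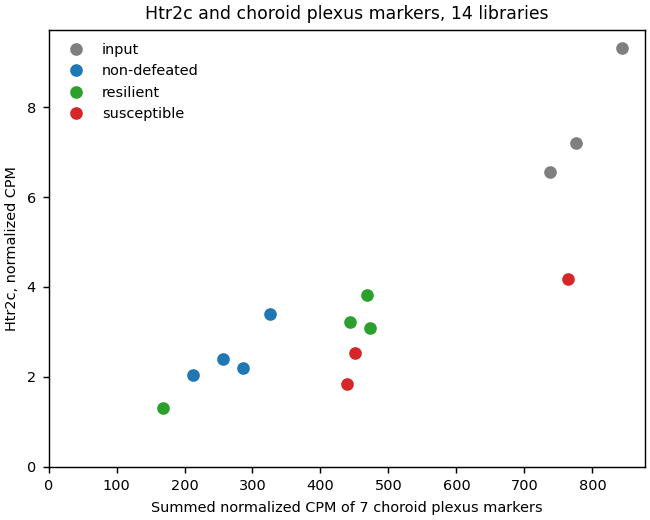
Htr2c (vertical axis, normalized CPM) against the summed normalized CPM of 7 choroid plexus markers (horizontal axis) in the 14 libraries, colored by group. Resilient replicate 3 lies lowest in both measures, at 169 and 1.30, and susceptible replicate 10, at 764 and 4.19, has marker levels within the range of input but less Htr2c than the input libraries.

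Htr3a (ENSMUSG00000032269; minus strand of chromosome 9, from 48899213 to 48911099) encodes the subunit that every 5-HT3 channel needs. It had 5.61, 5.85 and 5.14 normalized CPM in input and 2.83, 2.52, 3.44 and 1.56 in TRAP of non-defeated mice. No TRAP library reached the lowest input library, and the log2 fold change was -1.10 (SE 0.22, adjusted p = 0.000843). The 10 markers of interneurons from the caudal ganglionic eminence, the class known for 5-HT3A, summed to 399 ± 13.4 normalized CPM in input and 380 ± 65.8 in TRAP. Of these, 7 were called lower and 2 higher. Vip was lower, with 5.92 ± 2.19 in input and 1.21 ± 0.427 in TRAP. The 2 higher markers were Npy, which other interneurons also make, with 26.6 ± 2.61 and 184 ± 61.9, and Sncg, with 4.90 ± 0.647 and 20.1 ± 9.95. Their part in the level of Htr3a was not tested.

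Htr1f and Htr6 passed the filter but were not among the 10 genes. Htr1f, which encodes the Gi/o-coupled 5-HT1F receptor, had 1.58, 1.46 and 2.03 normalized CPM in input and 5.38, 4.77, 3.48 and 3.56 in TRAP of non-defeated mice. Every TRAP library was above every input library, with a log2 fold change of 1.34 (SE 0.23, adjusted p = 0.000169), larger than that of any of the 10 genes in that direction. Htr6, coupled to Gs, had 1.14 ± 0.107 in input and 0.723 ± 0.237 in TRAP (log2 fold change -0.66, adjusted p = 0.130).

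Within a library, pairs of receptors differed in their ratio between TRAP and input. These 5 pairs were set after the values had been seen and are given as a description. The log2 ratio of Htr7 to Htr1a was -1.09 ± 0.166 (SD, n = 3) in input and 0.88 ± 0.437 (SD, n = 4) in TRAP of non-defeated mice, a difference of 1.97. The log2 ratio of Htr1d to Htr1b differed by 2.72, from -3.21 ± 0.730 to -0.48 ± 0.767. The groups did not overlap in any of the 5 pairs, and the share of all gene pairs without overlap was not counted. The differences were 1.73 for Htr2a to Htr2c, 1.11 for Htr5a to Htr5b and 0.82 for Htr7 to Htr4. Such ratios do not depend on how libraries are scaled to each other.

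The genes through which these receptors signal were counted from lists of their pathways, and the counts are to be read against the 27.6% of all genes that were lower and the 27.4% that were higher. Of 9 Gi/o and GIRK genes tested, 5 were lower and 0 higher in TRAP of non-defeated mice when set against input. Kcnj6, a GIRK channel subunit, went from 7.34 ± 0.883 to 3.56 ± 0.534 normalized CPM (log2 fold change -1.05, adjusted p = 4.84e-05), and Gnai3, a Gi alpha subunit, had a log2 fold change of -0.88 (adjusted p = 8.39e-05). The median of this list was -0.50 on the log2 scale. Of 16 genes for Gs proteins, adenylyl cyclases and PKA, 4 were higher and 3 lower (median -0.12). Gnal, which encodes a stimulatory G alpha subunit, rose by 0.87 and Prkaca, a catalytic subunit of PKA, by 0.62 (adjusted p = 0.000160 and 3.34e-06), while the adenylyl cyclases Adcy2 and Adcy1 had log2 fold changes of -1.05 and -0.82 (adjusted p = 0.00171 and 0.000421).

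Of 13 genes of the Gq branch, 2 were higher and 6 lower (median -0.25). Gna14, which encodes a G alpha subunit of the Gq class, had 10.2 ± 2.06 normalized CPM (SD, n = 4) in TRAP and 0.957 ± 0.299 (SD, n = 3) in input, a log2 fold change of 3.43 (adjusted p = 1.07e-07). Plcb2, a phospholipase C beta, rose by 1.01 (adjusted p = 0.00746), and was not called without the 4 libraries with the most thalamic marker RNA (adjusted p = 0.0805). Prkcb, which encodes a protein kinase C, was lower, with 768 ± 34.5 normalized CPM in input and 343 ± 50.2 in TRAP (log2 fold change -1.16, adjusted p = 2.37e-06). Of 11 receptor partners and editing enzymes, 2 were higher and 3 lower (median -0.08). Adarb1, an RNA editing enzyme, rose by 0.88 and Arrb1, a beta-arrestin, by 0.59 (adjusted p = 0.00111 and 0.000229). Cav1, a caveolin, and S100a10, which encodes p11, a partner of 5-HT1B and 5-HT4 receptors, had log2 fold changes of -1.28 and -0.85 (adjusted p = 0.000225 and 0.00127). Of 9 genes for synthesis, uptake and breakdown of serotonin, 0 were higher and 3 lower (median -0.53). Ddc, the decarboxylase, and Slc29a4, a monoamine transporter, had log2 fold changes of -0.79 and -0.76 (adjusted p = 0.00607 and 0.0144), and Slc29a4 was not called without input replicate 12 (adjusted p = 0.0751).

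The TRAP libraries were then compared between stress groups, to ask whether receptor transcripts of PV neurons differ with CSDS or with its outcome. No receptor gene had an adjusted p-value under 0.05 in any of the 3 comparisons. The groups overlapped in all 10 genes each time, and the share of all genes that overlapped was not counted here. Resilient against non-defeated mice gave 0 of 10 at an adjusted and 0 of 10 at an unadjusted p-value under 0.05 in edgeR, where 0.0% and 4.38% of all genes passed. Susceptible against non-defeated mice gave 0 and 0 of 10, where 0.0376% and 13.3% of all genes passed. Susceptible against resilient mice gave 0 and 0 of 10, where 1.89% and 20.9% passed. DESeq2 also called 0 of 10 in each, with 0 of 10 at an unadjusted p-value under 0.05. The median log2 fold changes of the 10 genes were -0.07, 0.05 and 0.04 in the same order, and single genes ran from -0.51 to 0.41.

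**Figure D5:**
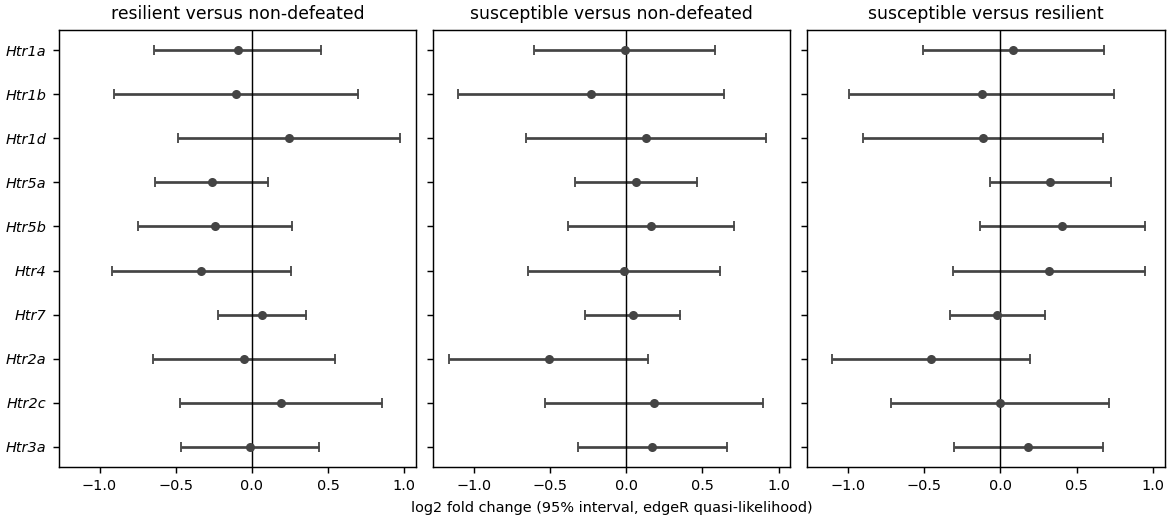
Log2 fold changes of the 10 receptor genes with 95% intervals derived from the edgeR test in resilient against non-defeated, susceptible against non-defeated and susceptible against resilient mice. Every interval includes 0, and the lowest bound is -1.16, for Htr2a in susceptible against non-defeated mice.

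The intervals say which differences these samples leave possible. In resilient against non-defeated mice the 95% intervals of all 10 genes stayed within a 2-fold change in either direction, and their bounds ran from -0.92 to 0.97 on the log2 scale. Against non-defeated mice, susceptible mice stayed within 2-fold for 8 genes, and against resilient mice for 9. Htr7 had the narrowest intervals, from -0.22 to 0.35, from -0.27 to 0.36 and from -0.33 to 0.29. Its levels were 14.1, 10.9, 12.2 and 11.99 normalized CPM in resilient and 12.6, 14.3 and 9.43 in susceptible mice, and both groups overlapped non-defeated mice. Htr1b had among the widest, with bounds of -1.10 and 0.64 in susceptible against non-defeated mice.

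Htr2a had the lowest log2 fold changes of the 10 genes in susceptible mice, and they did not pass the test. Susceptible libraries had 2.43, 3.03 and 2.37 normalized CPM and resilient libraries 4.80, 2.88, 2.11 and 4.55. The susceptible values lay close together in the lower part of the resilient and non-defeated ranges, and 1 library in each of those groups was lower still. The log2 fold change was -0.51 against non-defeated mice (SE 0.30, unadjusted p = 0.118, adjusted p = 0.480; exact permutation p = 0.200) and -0.46 against resilient mice (SE 0.30, unadjusted p = 0.156, adjusted p = 0.420). The lowest unadjusted p with 1 library left out was 0.0249, without non-defeated replicate 1. Against resilient mice it was 0.0419, without resilient replicate 7. Over all such fits the log2 fold change ran from -0.70 to -0.34 against non-defeated mice, with adjusted p from 0.202 to 0.707. Against resilient mice it ran from -0.64 to -0.28, with adjusted p from 0.277 to 0.646.

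For the 5-HT5 receptors, susceptible mice had higher means than resilient mice, within the spread between samples. Htr5a had 4.48, 3.47 and 2.84 normalized CPM in susceptible and 3.04, 2.89, 2.497 and 3.01 in resilient mice. The lowest susceptible library lay among the resilient ones, and the log2 fold change was 0.33 (SE 0.19, unadjusted p = 0.0990, adjusted p = 0.334). With 1 library left out in turn the value ran from 0.14 to 0.47, with adjusted p from 0.154 to 0.782. The highest value was that without susceptible replicate 10 (unadjusted p = 0.0283, adjusted p = 0.154). Htr5b had 1.97, 2.28 and 1.72 in susceptible and 1.79, 1.21, 1.07 and 1.94 in resilient mice, also overlapping, with a log2 fold change of 0.41 (SE 0.25, adjusted p = 0.386).

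The other Gi/o-coupled receptors varied more between libraries than between groups. Htr1a had 4.43, 6.05, 6.59 and 7.52 normalized CPM in resilient and 6.49, 3.79 and 9.29 in susceptible mice. Susceptible replicates 4 and 10 were the lowest and the highest of all TRAP libraries. The log2 fold changes of Htr1a were -0.09 in resilient and -0.01 in susceptible against non-defeated mice. Htr1b had 0.732, 1.55, 2.62 and 1.87 in resilient and 1.42, 0.799 and 2.45 in susceptible mice, and each group spanned most of the range of the other. Htr1d had 1.72, 1.71, 1.71 and 1.02 in resilient and 1.06, 1.95 and 1.26 in susceptible mice, and its log2 fold changes were 0.24, 0.13 and -0.12 in the 3 comparisons.

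Htr4, Htr2c and Htr3a also overlapped between all groups. Htr4 had 1.34, 3.16, 2.18 and 1.85 normalized CPM in resilient and 1.58, 2.60 and 3.80 in susceptible mice. Its largest log2 fold change was -0.33, in resilient against non-defeated mice (SE 0.27, unadjusted p = 0.245). With 1 library left out in turn this value ran from -0.585 to -0.163, and the lowest unadjusted p was 0.0479, without resilient replicate 5. Htr2c had 1.30, 3.23, 3.82 and 3.10 in resilient and 2.53, 1.84 and 4.19 in susceptible mice. The choroid plexus markers ran from 169 to 474 in resilient, from 440 to 764 in susceptible and from 212 to 325 in non-defeated mice, and their part in these levels was not tested. Htr3a had 2.49, 3.04, 2.53 and 2.19 in resilient and 2.65, 3.60 and 2.48 in susceptible mice, with log2 fold changes of -0.01, 0.17 and 0.18 in the 3 comparisons.

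Sample numbers run from 1 to 11 in TRAP, and libraries numbered 1 to 6 can be set apart from those numbered 7 to 11, of which 1 is susceptible. In the 10 genes, the sign of the difference was not always the same in both sets. In susceptible against non-defeated mice, only Htr2a and Htr3a kept their sign in both. The share of all genes that did so was not counted, and the second set rests on 1 susceptible library. For Htr2a the difference in mean log2 CPM was -0.24 and -0.71 against non-defeated mice in the first and second set. Against resilient mice it was -0.45 and -0.38. Htr5a differed between susceptible and resilient mice by 0.41 and 0.05, and Htr5b by 0.52 and 0.25. Between susceptible and non-defeated mice the differences were 0.19 and -0.23 for Htr5a, and 0.40 and -0.13 for Htr5b. Htr2c differed between susceptible and non-defeated mice by -0.40 in the first set and 0.98 in the second.

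In the signaling lists, 1 gene passed the threshold in the 3 stress comparisons. It did so in susceptible against resilient mice, where 1.89% of all genes tested passed. Adcy9, an adenylyl cyclase, had 7.67 ± 1.18 normalized CPM (SD, n = 4) in resilient mice against 12.6 ± 0.643 (SD, n = 3) in susceptible ones, a log2 fold change of 0.72 (SE 0.15, adjusted p = 0.0389). This call was lost when any library of the 2 groups other than susceptible replicate 10 was left out. The adjusted p was 0.0574, 0.0623, 0.0801 and 0.0930 without resilient replicates 3, 5, 7 and 8, and 0.147 and 0.0651 without susceptible replicates 2 and 4. Against non-defeated mice the adjusted p of Adcy9 was 0.132. The other 57 genes tested in these lists had adjusted p-values above 0.05 in each comparison. They include S100a10, which the paper reports as higher in susceptible mice than in non-defeated or resilient mice. Its log2 fold change was 0.43 against non-defeated mice (unadjusted p = 0.0368, adjusted p = 0.349). Against resilient mice it was 0.59 (unadjusted p = 0.00668, adjusted p = 0.100). For S100a10, the p-values that the paper prints lie close to the unadjusted ones here, while the threshold here is set on adjusted p-values.

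Genes whose levels varied most like those of a receptor were sought among 15991 genes over the 11 TRAP libraries. These correlations are descriptions over few libraries that share depth and the RNA of other cells. Each is the best of many genes, and the values that unrelated genes would reach in this way were not computed. Htr7 was most like Tmem222 (Pearson r = 0.974, Spearman rho = 0.900), Tspan6 (0.956, 0.945) and Rce1 (0.941, 0.918). Htr2c was most like Prr32 (0.952, 0.900), Slc16a8 (0.936, 0.955), a lactate transporter, and Btbd17 (0.932, 0.955). Htr1b varied like Palld (0.930, 0.918), N4bp2 (0.926, 0.918) and Fzd7 (0.914, 0.855), a receptor for Wnt proteins. Htr1a varied like Fam135a (0.920, 0.755), Dlk1 (0.904, 0.709) and Cep44 (0.891, 0.746).

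Htr4 was most like Slc24a4 (0.918, 0.927), D3Ertd254e (0.910, 0.891) and U2surp (0.909, 0.909), and Htr2a most like Mybpc1 (0.916, 0.918), Sar1a (0.892, 0.836) and Lrrn3 (0.887, 0.827). Htr5b varied like Plp2 (0.913, 0.818), Rgs13 (0.908, 0.927), a regulator of G protein signaling, and Gm11837 (0.881, 0.882). Htr1d varied like 9030407P20Rik (0.902, 0.891) and Gstz1 (0.885, 0.946), and Htr5a like Gm10010 (0.896, 0.836), Fbxl19 (0.866, 0.855) and Scn8a (0.855, 0.618), a sodium channel. Htr3a had the lowest leading value of the 10 receptors, with Mettl16 (0.864, 0.700), Gm14169 (0.862, 0.818) and Mcat (0.849, 0.636).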

How the data were processed

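TRAP RNA of hippocampal PV neurons and input RNA were sequenced as single reads from SMART-Seq v4 and Nextera XT libraries. The authors trimmed reads with fastp, aligned them to mm10 with STAR (version 2.5.3a in the submitters' processing notes, which also name HTSeq) and deposited raw counts per gene without normalization. Their gene annotation is not given in the sources used here. Genes were named from GENCODE (GRCm38), which matched 37693 of 39017 identifiers; identifiers without a name took 0.824% of all counts.

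Counts of all 14 libraries were fitted in 1 model in edgeR 4.0.16 (R 4.3.3) after TMM normalization and edgeR's filterByExpr filter by group, with the quasi-likelihood test, 2-sided, with Benjamini-Hochberg adjustment over 21298 genes and a threshold of 0.05. The study's methods name DESeq2, which was run as an alternative (version 1.42.0). Exact permutation tests, 2-sided, used log2 CPM with a prior count of 2. RPKM was computed from normalized CPM and merged exon length, and detection required at least 10 counts in a library. Steps were tested on simulated data. Depth limits each value through counting error, which is part of the spread between samples that the tests use.

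Each TRAP sample is 1 mouse, and replicates of a group differed by more than counting error (chi-square per degree of freedom of at least 13.2). The labels do not say which mice gave the input. The receptors and the gene lists were chosen with earlier results of these data known, and the comparisons between stress groups share samples. Genes named in the text are the 10 receptors, 4 further receptor genes, every list gene past the threshold between stress groups, for TRAP against input the 2 list genes per direction with the largest change among those past the threshold, and the 3 genes with the highest Pearson correlation to each receptor among genes with a mean of at least 1 CPM in TRAP. Some genes that this rule gives are not reported here. Marker genes and values of single libraries are named where they stand beside a receptor or describe the libraries. Alternatives were the likelihood ratio test, DESeq2, RLE factors, total counts, no or a stricter filter (10 counts in every library), fewer libraries, a term for sample numbers 1 to 6 against 7 to 11, another prior count or gene length, and leaving out each library. Leaving out the 4 libraries with the most thalamic marker RNA, and the ratios of receptor pairs, were added after the data were seen.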

Additional observations from a re-analysis of the deposited data

Results flagged for a closer look

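Among the 20 sets of 4 TRAP libraries tested, 10 genes in 2 groups, 2 held a library far from the other 3, and chance alone gives about 1 in 20. Htr1d had 1.02 normalized CPM in resilient replicate 8, while the other 3 resilient libraries had 1.71 to 1.72. Htr4 had 2.08 normalized CPM in non-defeated replicate 6, while the other 3 non-defeated libraries had 2.84 to 2.96.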

How the results depend on the processing

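No paired analysis was possible because no sample number occurs in more than 1 group. The number of receptor genes called in TRAP against input was 7, and 5 to 8 under the alternatives; it was 0 in each stress comparison under every alternative run. Htr1a, Htr1b, Htr4, Htr2c and Htr3a were called lower in TRAP in 8 of 8 other settings and in each of the 7 fits that leave out 1 library. Htr1d was not called with total counts only (adjusted p = 0.0597) or in a fit of the 2 groups alone (0.0516). With total counts only, Htr2a turned to -0.030 in TRAP against input, and in susceptible mice Htr1a turned to 0.00860 and Htr4 to 0.00126 against non-defeated and Htr2c to 0.026 against resilient mice. Htr2c in susceptible against resilient mice, -0.0039 in the model of all libraries, was 0.00497 with RLE factors and 0.00170 with at least 10 counts in every library. With the term for sample numbers it was 0.033, and against non-defeated mice Htr7 was -0.0024 and Htr4 0.00313. Without the 4 libraries with the most thalamic marker RNA, the log2 fold changes in resilient against non-defeated mice were -0.00037 for Htr7, 0.23 for Htr2a, -0.17 for Htr2c, 0.013 for Htr5b and -0.16 for Htr1d. In susceptible against non-defeated mice they were -0.033 for Htr7, 0.12 for Htr4, -0.015 for Htr2c and -0.23 for Htr1d, and in susceptible against resilient mice 0.16 for Htr2c and 0.16 for Htr1b. The cause of these turns was not tested, and all concern differences that did not pass the threshold. With 1 library left out in turn, Htr2a ran from -0.0037 to 0.35 in TRAP against input. In resilient against non-defeated mice, values changed sign for Htr2a (-0.25 to 0.13), Htr1a (-0.26 to 0.097), Htr3a (-0.20 to 0.15), Htr1b (-0.40 to 0.14) and Htr7 (-0.0082 to 0.13). In susceptible against non-defeated mice they did so for Htr4 (-0.36 to 0.25), Htr3a (-0.012 to 0.34), Htr1d (-0.17 to 0.33), Htr1a (-0.35 to 0.26), Htr5a (-0.13 to 0.21), Htr7 (-0.091 to 0.20), Htr2c (-0.20 to 0.42) and Htr1b (-0.72 to 0.084). In susceptible against resilient mice they did so for Htr1a (-0.26 to 0.36), Htr7 (-0.16 to 0.13), Htr2c (-0.39 to 0.23), Htr1b (-0.61 to 0.19), Htr4 (-0.029 to 0.59) and Htr1d (-0.41 to 0.058). Adcy9 in susceptible against resilient mice was called in 6 of 10 other settings, and not in fits of TRAP alone (adjusted p = 0.102), of the 2 groups alone (0.136), with no filter (0.0528) or without the 4 thalamic libraries (0.109). With 3 or 4 samples a group, the 95% intervals of the receptors in the stress comparisons reached a median of 0.57 to 0.61 on the log2 scale to either side.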
